A study of Mus musculus with 4 samples.

Results

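Ndrg1, Ero1l, Egln3, Adm, Vegfa, Ankrd37, Bnip3, Pgf, P4ha1 and P4ha2 are genes known to be induced when cells are short of oxygen. They were taken by symbol, 10 of the 32285 gene rows, and all 10 had counts in both pools of cells. Mammary gland organoids, grown from fat pads of virgin mice aged 8 to 9 weeks with the lymph nodes removed, were cultured in 4 matrices, which the labels call stiff (STIFF), collagen (COL1), soft (SOFT) and Matrigel (MATR). No genetic change or drug is named for any group. Cells carried a hashtag antibody for their matrix, and COL1 with STIFF, and MATR with SOFT, were each pooled on 1 channel of a droplet chip and sequenced as single cells, with unique molecular identifiers (UMIs) counted per gene. The series asks what collagen and matrix stiffness do in the glandular epithelium.

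Each matrix is 1 culture here, so no test between matrices was possible, and every interval below covers counting error only, not the spread between cultures. COL1 against STIFF and MATR against SOFT are comparisons within a channel. In STIFF against SOFT and COL1 against MATR, matrix and channel cannot be told apart. The labels do not say which tag marked which culture. The tags were paired by the order of antibodies in the names of the deposited matrices, and an exchange within a pool would turn the direction between its matrices.

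Hypoxia-inducible factor (HIF) is a transcription factor whose alpha subunit is marked by oxygen-dependent prolyl hydroxylases and then destroyed. When oxygen is low the subunit persists, pairs with Arnt and binds a short core motif in its target genes. Targets serve blood supply (Vegfa, Pgf, Adm), protein folding and matrix (Ero1l, P4ha1, P4ha2), mitochondrial removal (Bnip3) and feedback on HIF itself (Egln3). Several of them are also driven by other stress pathways, and in the mammary gland Vegfa takes part in the vessel growth that goes with the expansion of the epithelium.

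The stretches just upstream of the transcription start are shown because the genes were grouped as HIF-induced and the HIF core motif can be looked for in them. RefSeq's promoter table (GRCm38.p6) had an entry for 9 of the 10 genes, with 11 starts between them. The letters ACGTG and GCGTG, which read CACGT and CACGC on the opposite strand, were searched on both strands of the 250 bases before each start, and overlapping matches were counted separately. Capitals mark the matches. The 4 windows printed run 5′ to 3′ in the direction of the gene, and are chr14:45318573-45318822 (minus strand) for Ero1l, chr7:110627407-110627656 (plus strand) for Adm, chr7:138909507-138909756 (minus strand) for Bnip3 and chr11:54100674-54100923 (plus strand) for P4ha2.

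Ero1l: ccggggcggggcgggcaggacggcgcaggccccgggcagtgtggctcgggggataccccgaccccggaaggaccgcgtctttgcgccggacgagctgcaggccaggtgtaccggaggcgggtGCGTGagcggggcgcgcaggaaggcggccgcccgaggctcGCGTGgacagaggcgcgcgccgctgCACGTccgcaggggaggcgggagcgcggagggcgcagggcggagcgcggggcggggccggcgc
Adm: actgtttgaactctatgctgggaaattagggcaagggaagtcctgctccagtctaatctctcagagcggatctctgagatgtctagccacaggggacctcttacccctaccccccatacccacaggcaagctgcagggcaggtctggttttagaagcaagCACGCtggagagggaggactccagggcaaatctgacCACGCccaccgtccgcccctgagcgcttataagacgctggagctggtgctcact
Bnip3: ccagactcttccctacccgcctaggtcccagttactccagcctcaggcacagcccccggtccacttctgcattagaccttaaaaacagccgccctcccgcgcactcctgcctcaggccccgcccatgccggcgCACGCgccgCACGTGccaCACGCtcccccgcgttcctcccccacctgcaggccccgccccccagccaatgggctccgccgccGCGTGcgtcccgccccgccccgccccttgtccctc
P4ha2: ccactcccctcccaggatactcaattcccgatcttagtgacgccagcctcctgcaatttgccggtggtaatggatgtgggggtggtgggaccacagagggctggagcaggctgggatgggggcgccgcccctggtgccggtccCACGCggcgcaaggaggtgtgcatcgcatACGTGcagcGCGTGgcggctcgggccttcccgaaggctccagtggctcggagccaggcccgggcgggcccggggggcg

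Ero1l had 3 matches, at 128, 88 and 63 bases before its start, and Adm had 2, at 90 and 54 bases. Bnip3 had 5, of which the pair at 108 and 107 bases overlap as one palindrome. P4ha2 had 3, at 107, 78 and 69 bases. Among the genes not printed, Ankrd37 had 4 matches (241, 155, 152 and 6 bases before the start), P4ha1 had 3 (163, 126 and 16 bases), Egln3 had 1 (229 bases) and Pgf had 1 (124 bases) at its first start and none at the other. Vegfa had 2 matches at its second start (218 and 211 bases) and none at its first. At least 1 match was thus found in 9 of the 11 windows of these genes, beside 38.6% of the 32851 windows in the table, and 3 or more matches in 5 of the 11, beside 6.58%. These shares are not adjusted for base composition, and a match is a string of letters, not a measured binding site.

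The cell filter kept 9568 and 7945 barcodes of the COL1 and STIFF pool and the MATR and SOFT pool, of which 19 were the same in both. Hashtags gave 1563 COL1, 2451 STIFF, 2333 MATR and 1941 SOFT cells, with 23466134 to 52611678 UMIs per matrix and a median of 11353 to 16843 UMIs per cell, lowest in COL1. Cells clustered without the genes described here were named from markers. The names basal, hormone receptor (HR)-positive luminal, HR-negative luminal, fibroblast and macrophage below stand for basal-like, HR-positive luminal-like and so on, and clusters of 408 and 1009 cells stayed unnamed. The unnamed cells held 34.3% of the UMIs in STIFF against 20.3% to 24.3% in the other matrices. In STIFF they held from 21.3% of the P4ha1 UMIs to 51.2% of those of Pgf and 54.2% of those of Egln3. Levels by class leave these out. Each class led in its own markers, but luminal markers (Krt8, Krt18, Krt19 and Epcam) were also counted in the other classes. Their 4 genes summed to 5767 counts per 1000000 UMIs (CPM) in STIFF macrophages against 1736 to 3546 in the other matrices, and to 3206 in STIFF fibroblasts against 1533 to 2134. In fibroblasts basal markers summed to 2314 to 3759 CPM, and macrophage markers to 1694 CPM in SOFT against 188 to 775 in the other matrices. Lymphocyte markers summed to at most 1.13 CPM in any class. The part of RNA from other classes in the results was not tested.

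Levels are given in CPM from UMIs summed over the cells of a class and matrix, with an exact Poisson 95% interval in brackets where one is printed. Levels are compared within a gene, not between genes.

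**Figure D1:**
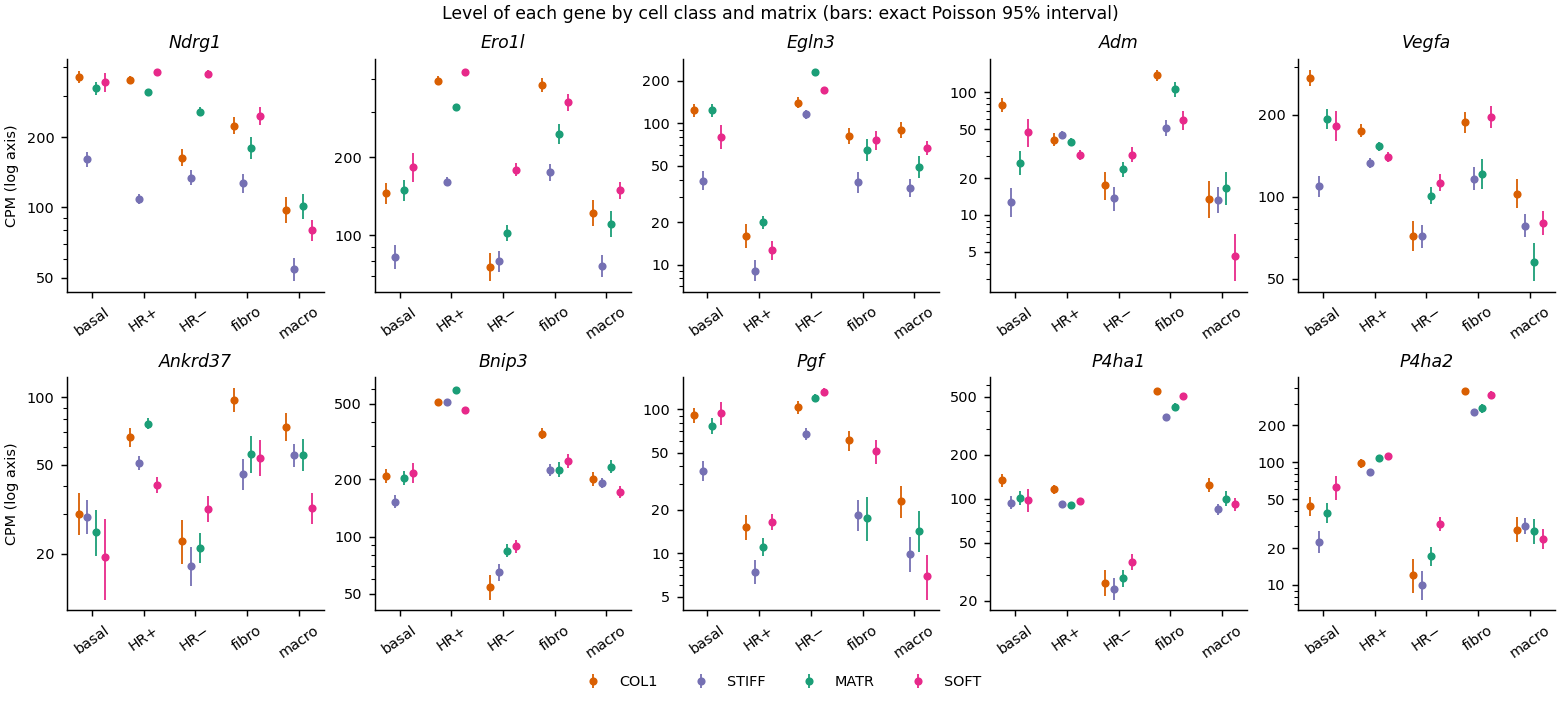
Level in CPM (log axis) of each of the 10 genes in basal, HR-positive (HR+), HR-negative (HR−), fibroblast (fibro) and macrophage (macro) cells of the 4 matrices. Points are pooled levels of 1 culture and bars exact Poisson 95% intervals. STIFF was lowest in 36 of the 50 gene and class pairs, a count that was not made over all genes. P4ha1 and P4ha2 were highest in fibroblasts in all 4 matrices.

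Among the secreted factors, Vegfa, the main growth factor for blood vessels (chr17:46016993-46032377, GRCm38.p6, as for all positions here), was counted in every class. In basal cells its level was 274 CPM in COL1 [255 to 293] and 109 in STIFF [99.7 to 119.7], 194 in MATR and 183 in SOFT, so STIFF stood below the other 3, and COL1 above them. In HR-positive cells the levels were closer together, at 175 in COL1 and 133 in STIFF, 153 in MATR and 140.3 in SOFT. Fibroblasts had 188, 117, 122 and 197 CPM in the same order, which put STIFF and MATR together at the low end. HR-negative cells (71.7 to 113 CPM) and macrophages (57.8 to 103 CPM) had the lowest levels of Vegfa in each matrix.

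Pgf, placental growth factor, a Vegfa relative that binds the receptor Flt1 (chr12:85166637-85177785), was highest in HR-negative cells and next in basal cells in all 4 matrices. HR-negative cells had 103 CPM in COL1 and 67.3 in STIFF, 119 in MATR and 131 in SOFT, and basal cells 90.9, 37.5, 76.4 and 94.0. The intervals of these classes overlapped in COL1 only. In fibroblasts Pgf split the matrices into a high pair, COL1 at 60.6 CPM and SOFT at 51.0, and a low pair, STIFF at 18.5 and MATR at 17.4, with intervals that overlapped within each pair but not between them. HR-positive cells held 7.44 to 16.4 CPM.

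Adm, which encodes the vessel-dilating peptide adrenomedullin (chr7:110627657-110629820), was highest in fibroblasts in all 4 matrices: 137 CPM in COL1 and 51.4 in STIFF, 106 in MATR and 59.3 in SOFT. In STIFF its fibroblast interval overlapped that of HR-positive cells, and in SOFT that of basal cells. Basal cells had the widest range between matrices, with 78.4 CPM in COL1 [68.5 to 89.3] and 12.8 in STIFF [9.64 to 16.7], 26.6 in MATR [21.0 to 33.2] and 47.0 in SOFT [36.0 to 60.4], and no 2 of these intervals overlapped. HR-positive cells were the class in which STIFF was highest, at 45.1 CPM, and SOFT lowest, at 30.5.

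Receptors for these factors were counted in unlike classes. Kdr, the main Vegfa receptor of endothelial cells, was at 0.30 to 0.81 CPM over all cells of a matrix, and 24 cells in all formed an endothelial-like cluster. Flt1, which binds Vegfa and Pgf, was at 29.7 to 73.9 CPM in HR-positive cells and 38.2 to 66.7 CPM in fibroblasts. Calcrl, which forms the adrenomedullin receptor together with Ramp2 or Ramp3, was at most 21.8 CPM, in STIFF fibroblasts. Ramp2 was at most 9.95 CPM, also in STIFF fibroblasts, and Ramp3 at most 3.82 CPM, in COL1 basal cells. Ramp1, with which Calcrl forms the receptor of another peptide, was at 319 to 377 CPM in basal cells.

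Egln3, one of the prolyl hydroxylases that mark HIF for destruction (chr12:54178981-54203874), had the same extremes in all 4 matrices, highest in HR-negative and lowest in HR-positive cells. HR-negative cells had 139.9 CPM in COL1 and 116 in STIFF, 229 in MATR and 171 in SOFT, against 16.1, 9.08, 20.03 and 12.6 in HR-positive cells, a gap of 8.72-fold to 13.6-fold. In COL1 the interval of basal cells overlapped that of HR-negative cells. Basal cells of STIFF held 39.3 CPM [33.6 to 45.7], below COL1 at 124, MATR at 123 and SOFT at 80.1. Macrophages of COL1 held 90.0 CPM, above 67.3 in SOFT, 49.4 in MATR and 34.8 in STIFF.

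Bnip3, a mitochondrial outer membrane protein that directs mitochondria to autophagy (chr7:138890836-138909506), had the opposite distribution. It was highest in HR-positive cells, with 509.5 CPM in COL1 and 512 in STIFF, 592 in MATR and 463 in SOFT, and lowest in HR-negative cells, with 54.2, 64.9, 84.4 and 89.0 CPM. Within HR-positive cells the COL1 and STIFF intervals, 493 to 527 and 501 to 523, overlapped. MATR was highest, and the SOFT interval lay below those of the other matrices. Fibroblasts of COL1 held 348 CPM [326 to 371] against 224 to 249 in the other 3 matrices.

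Ndrg1, a cytoplasmic stress-response protein linked to differentiation and to restraint of metastasis (chr15:66929318-66969641), had no promoter entry. Its level was lowest in macrophages in all 4 matrices (54.4 to 101 CPM). HR-positive cells had 351 CPM in COL1 [337 to 365] and 109 in STIFF [104 to 114], 313 in MATR [305 to 321] and 378 in SOFT [368 to 388]. HR-negative cells had 163, 134, 256 and 373 CPM in the same order. STIFF was therefore the lowest matrix in both luminal classes, as it also was in basal cells (161 CPM against 323 to 362), fibroblasts (127 against 180.1 to 246) and macrophages.

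Ero1l, listed as Ero1a in RefSeq, is the oxidase of the endoplasmic reticulum that drives disulfide bond formation (chr14:45283087-45318572). HR-positive cells had 396 CPM in COL1 and 161 in STIFF, 313 in MATR and 426 in SOFT, and fibroblasts 382, 175, 246 and 327. Those were the leading classes in every matrix, and their intervals overlapped in COL1 and STIFF. STIFF was the lowest matrix in 4 of the 5 classes. In HR-negative cells COL1, at 75.5 CPM, and STIFF, at 79.4, overlapped, and SOFT was above both at 179.

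P4ha1 and P4ha2 encode alternative catalytic subunits of the collagen prolyl 4-hydroxylase, which stabilises the collagen triple helix (chr10:59323197-59373304 and chr11:54100924-54131668). P4ha1 in fibroblasts was 546 CPM in COL1 [518 to 575] and 362 in STIFF [342 to 382], 426 in MATR [397 to 456] and 505 in SOFT [475 to 536]. P4ha2 in fibroblasts was 378, 255, 275 and 353 CPM in the same order. For both genes fibroblasts were the highest class in all 4 matrices, by 13.7-fold to 20.6-fold over the lowest class for P4ha1 and 14.8-fold to 31.6-fold for P4ha2. In COL1, fibroblasts gave 42.1% of the P4ha1 UMIs and 45.7% of the P4ha2 UMIs but 11.03% of all UMIs. Outside fibroblasts the subunits parted: HR-positive cells had more P4ha2 than basal cells in each matrix (83.8 to 113 CPM against 22.6 to 62.4), while P4ha1 was at least as high in basal cells (94.0 to 134 CPM) as in HR-positive cells (90.8 to 116 CPM) in each matrix.

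Ankrd37, an ankyrin-repeat protein whose hypoxic induction is well known and whose function is less so (chr8:45996908-46000414), had no fixed leading class. Fibroblasts led in COL1 with 97.3 CPM and in SOFT with 53.7, HR-positive cells in MATR with 76.4, and macrophages in STIFF with 55.1.

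Over the 20 class and matrix levels, the patterns of the genes on a log2 scale with 10 CPM added were compared as a description, since classes of 1 matrix share a channel and depth. P4ha1 and P4ha2 were the most alike pair (Pearson r 0.89), followed by Egln3 and Pgf (0.82), and Adm and Ero1l each with P4ha2 (0.81). Egln3 and Bnip3 were the least alike (−0.80). Among the 4811 genes of at least 50 CPM in 1 class and matrix, those most like Bnip3 were the glycolytic enzymes Gapdh (0.97), Tpi1 (0.96) and Pgk1 (0.96), with Mgarp (0.96) and Ptpn1 (0.95). Those most like Vegfa were the glucose transporter Slc2a1 (0.88), Ctps (0.85), Slc25a1 (0.84), the glycolytic enzyme Eno1 (0.84) and Smap1 (0.84). Most like Adm were Arfgap3 (0.92), Pck2, Fstl3, Nbl1 and Jmjd6 (0.88 each). Ero1l was most like Rbms2 and Pttg1ip (0.90 each), Tnfrsf23 (0.88), Med10 and Cast (0.87 each), and Ndrg1 most like Rabac1 (0.90), Ing1 (0.85), 1110038B12Rik (0.84), Imp3 (0.83) and Acbd6 (0.82).

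Across matrices, STIFF was the lowest in 36 of the 50 gene and class pairs, and in 23 of those its interval lay below the next. The count was 9 of 10 genes in basal cells, 9 in fibroblasts, 8 in HR-negative cells, 6 in HR-positive cells and 4 in macrophages. COL1 was the highest in 21 pairs, SOFT in 20, MATR in 7 and STIFF in 2. The exceptions in HR-positive cells were Adm, Ankrd37 and Bnip3, lowest in SOFT, and P4ha1, lowest in MATR. These orders were counted for the 10 genes only, so no share of all measured genes stands beside them. The pairs come from the same cultures and are not independent.

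The comparison of COL1 with STIFF sets the collagen culture beside the stiff one within 1 channel. Over all cells, Ndrg1 was 2.09 times as high in COL1 [2.02 to 2.16], Pgf 1.95 [1.82 to 2.08], Ero1l 1.81 [1.75 to 1.88], P4ha1 1.58 [1.51 to 1.66] and Adm 1.57 [1.45 to 1.69]. These 5 of 10 genes were at least 1.5-fold higher in COL1, the size used for all counts here, beside 2.65% of the 8504 genes measured, where measured means at least 10 CPM in 1 matrix and 50 UMIs over both. Egln3, Vegfa, P4ha2 and Ankrd37 were 1.39 to 1.46 times as high, and Bnip3 was level at 0.972 [0.945 to 1.0003]. The median log2 ratio of the 10 genes was 0.60 beside −0.03 for all measured genes. Under the margin tag rule, which asks for a clear lead of 1 tag, 3 genes passed 1.5-fold. Fibroblasts, the class with the most P4ha1, were 10.5% of COL1 and 5.96% of STIFF cells, and the part of this share in the P4ha1 ratio over all cells was not tested.

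Within basal cells 7 of the 10 genes were at least 1.5-fold higher in COL1, beside 3.88% of all measured genes. Adm stood highest at 6.12-fold [4.54 to 8.38], followed by Egln3 at 3.15 [2.61 to 3.80], Vegfa at 2.50 [2.23 to 2.81], Pgf at 2.43, Ndrg1 at 2.25, P4ha2 at 1.95 and Ero1l at 1.75. Both other vessel factors thus went with Adm, while Ankrd37 was level at 1.03 [0.774 to 1.36] and Bnip3 and P4ha1 were 1.37 and 1.42 times as high. The median log2 ratio of the 10 genes was 1.07. Bnip3 was past 1.5-fold under the relative tag rule (log2 ratio 0.64) and with the highest doublet scores left out (1.073), and 8 genes then passed. Basal cells of COL1 had a median of 8646 UMIs and those of STIFF 19000, and the luminal markers summed to 3006 and 5163 CPM in them; the part of either in these ratios was not tested.

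Within fibroblasts 9 of the 10 genes were at least 1.5-fold higher in COL1, beside 4.75% of all measured genes, and the tenth, P4ha2, was 1.48 times as high [1.35 to 1.62]. Pgf led at 3.27-fold [2.44 to 4.43], then Adm at 2.67, Ero1l at 2.18, Ankrd37 at 2.15, Egln3 at 2.12, Ndrg1 at 1.76, Vegfa at 1.61, Bnip3 at 1.55 and P4ha1 at 1.51. P4ha1 was under this size by the margin tag rule (log2 ratio 0.34) and with the highest doublet scores left out (0.53). Of the 5 classes, fibroblasts were the one in which Bnip3 and Ankrd37 passed this size. Bnip3 also passed it in basal cells under the relative tag rule and with the highest doublet scores left out. The fibroblast markers summed to 14220 CPM in COL1 and 14294 in STIFF, but those of other cells differed: luminal markers summed to 1533 and 3206 CPM in these fibroblasts, macrophage markers to 775 and 388, and cycling markers to 188 and 331. Their part in these ratios was not tested.

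Within macrophages 4 genes were at least 1.5-fold higher in COL1, beside 3.95% of all measured genes: Egln3 at 2.59 [2.13 to 3.15], Pgf at 2.31 [1.57 to 3.41], Ndrg1 at 1.80 and Ero1l at 1.60. The same 4 passed when a shallow macrophage cluster, with 81 of its 101 cells in COL1 and a median of 1467 UMIs, was left out. HR-negative cells had the lowest count, with 1 gene, Pgf at 1.53 [1.32 to 1.77], past the size beside 1.49% of all measured genes. Pgf was under it by the relative and the margin tag rule (log2 ratios 0.36 and 0.47), where Adm passed instead (0.65 in both). In this class Ero1l (0.951), Vegfa (1.005) and Bnip3 (0.835) were level or lower.

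Within HR-positive cells 4 genes were at least 1.5-fold higher in COL1, beside 2.76% of all measured genes: Ndrg1 at 3.22 [3.03 to 3.43], Ero1l at 2.46 [2.32 to 2.59], Pgf at 2.04 and Egln3 at 1.77. Adm (0.909) and Bnip3 (0.995) were level. This class was made of 3 clusters in unlike shares, and it changed when 1 of them, cluster 5, was left out. Then Ndrg1 was higher in COL1, at 1.59 [1.46 to 1.73], Adm was past the size in the other direction (log2 ratio −0.74), Ero1l was at 1.20, and the median log2 ratio of the 10 genes was 0.03 in place of 0.39.

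**Figure D2:**
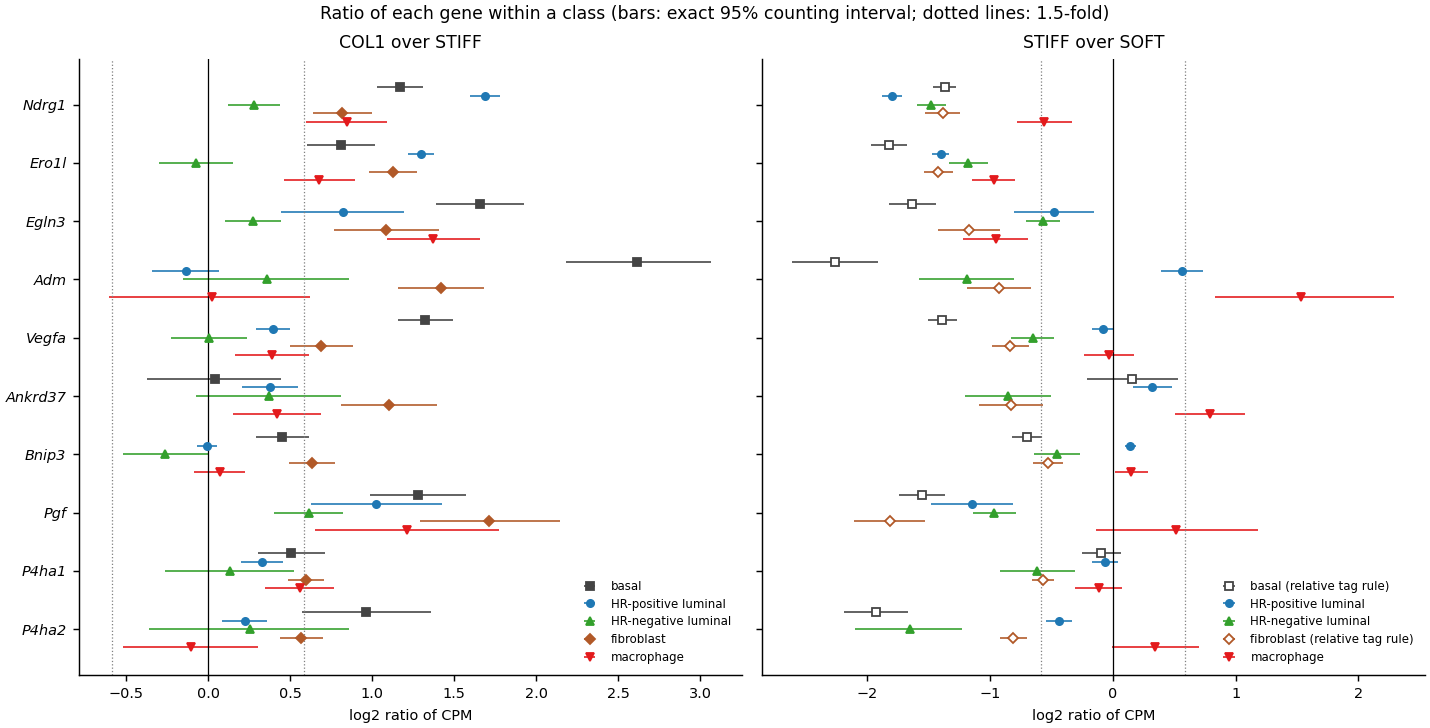
Log2 ratio of the CPM of each gene within 5 classes, COL1 over STIFF on the left and STIFF over SOFT on the right. Bars are exact 95% counting intervals, dotted lines mark 1.5-fold, and open symbols are classes with too few SOFT cells, taken under the relative tag rule. Fibroblast points lie right of 0 for all 10 genes on the left, and HR-negative points left of 0 for all 10 genes on the right.

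Cluster 5 was 23.3% of HR-positive cells in COL1, 26.3% in MATR and 28.2% in SOFT but 2.87% in STIFF (31 cells, too few for a level). Its leading genes by fold were Fam13a, Krt78, Ly6d, Isg20, Ffar4 and Fxyd4. The 10 genes had no part in the clustering. All 10 were higher in cluster 5 than in the other HR-positive cells of COL1, MATR and SOFT. The share of all measured genes higher in cluster 5 was not counted. This is given as a description and with no test, because clusters were formed from the other genes of the same cells. Ndrg1 was at 1107 CPM in cluster 5 and 162 in the other HR-positive cells of COL1, at 810 and 153 in MATR, and at 1004 and 167 in SOFT.

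Those gaps, 6.85-fold, 5.29-fold and 6.02-fold, ranked Ndrg1 at 4, 4 and 9 from the top among 7766 to 8062 measured genes. Ero1l was at 1230 CPM against 188 in COL1, 646 against 207 in MATR and 1120 against 192 in SOFT. Pgf was 3.42, 4.96 and 7.56 times as high in cluster 5, Adm 3.72, 2.09 and 3.82 times, and Vegfa 3.55, 1.85 and 3.25 times. P4ha2 had the smallest gaps, at 1.84, 1.40 and 1.87 times. From the top, the 10 genes ranked from 4 to 245 in COL1, 4 to 549 in MATR and 6 to 202 in SOFT. In MATR the gap was smaller than in COL1 and SOFT for 7 of the 10 genes, all but Egln3, Ankrd37 and Pgf. Such a count was not made over all genes.

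Outside cluster 5, Ndrg1 was still lower in STIFF within the same cluster. Cluster 2 had 147 CPM of Ndrg1 in COL1 and 95.5 in STIFF, a ratio of 1.54 [1.38 to 1.73], and cluster 3 had 179 and 118, a ratio of 1.51 [1.32 to 1.73]. Ero1l had ratios of 1.22 [1.12 to 1.34] and 1.48 [1.28 to 1.70] there. Adm was highest in cluster 2 of STIFF, at 55.0 CPM against 25.7 to 35.5 in the other matrices.

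**Figure D3:**
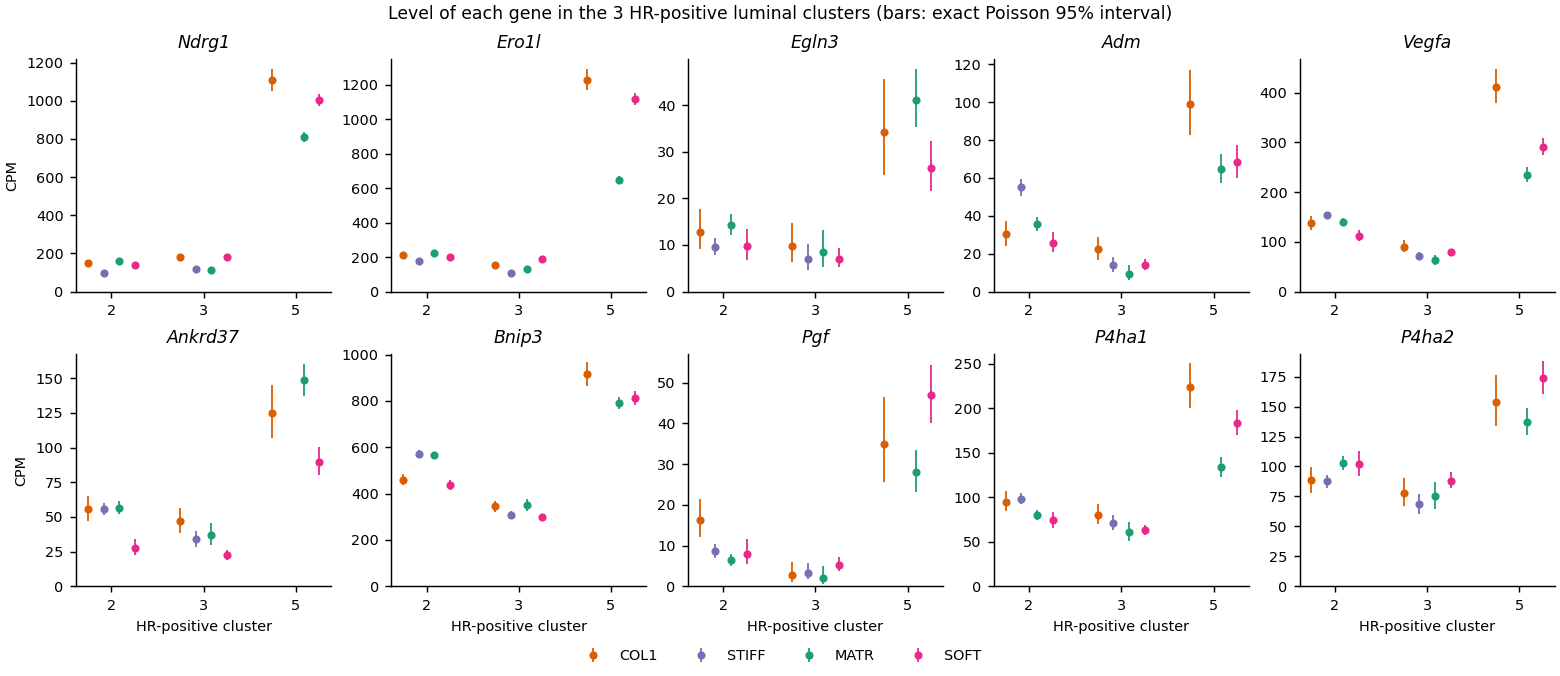
Level in CPM (linear axis from 0) of each gene in clusters 2, 3 and 5 of the HR-positive cells, by matrix, with exact Poisson 95% intervals. STIFF has no point in cluster 5, where it had 31 cells, and Ndrg1 in cluster 5 lies between 810 and 1107 CPM in the other 3 matrices.

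STIFF against SOFT compares the matrices named for their stiffness, across channels. Over all cells, Ndrg1 was 2.53 times as high in SOFT [2.45 to 2.61] and Ero1l 2.23 times [2.17 to 2.30]. These were the 2 genes at least 1.5-fold lower in STIFF, beside 2.32% of all measured genes. Pgf was 1.46, P4ha2 1.33 and Egln3 1.28 times as high in SOFT, and Adm (1.14), Ankrd37 (1.18) and Bnip3 (1.07) were slightly higher in STIFF. The median log2 ratio of the 10 genes was −0.29 beside 0.02 for all measured genes. The count was 4 under the relative tag rule, without unnamed clusters and with classes weighted equally.

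In HR-positive cells 3 genes were at least 1.5-fold lower in STIFF, beside 3.47% of all measured genes: Ndrg1, 3.47 times as high in SOFT [3.28 to 3.67], Ero1l, 2.64 times, and Pgf, 2.21 times. Without cluster 5, Ndrg1 was still lower in STIFF, by 1.65 times [1.54 to 1.76], but Adm and Ankrd37 were higher in STIFF (log2 ratios 1.31 and 1.05). The median log2 ratio was −0.26 over the 10 genes measured with cluster 5 and 0.50 over the 8 measured without it. These medians cover unlike sets of genes. In HR-negative cells 8 of 10 were at least 1.5-fold lower in STIFF, beside 3.19% of all measured genes. P4ha2 was 3.14 times as high in SOFT [2.34 to 4.28], Ndrg1 2.78 [2.57 to 3.02], Adm 2.28, Ero1l 2.26, Pgf 1.95, Ankrd37 1.80, Vegfa 1.57 and P4ha1 1.53, and Egln3 (1.48) and Bnip3 (1.37) went the same way. That count rests on how HR-negative cells are drawn: it was 5 under either other tag rule and 3 with finer clusters, where the log2 ratios of Adm, Ankrd37 and P4ha1 turned to 0.072, 0.13 and 0.10 and Bnip3 was higher in STIFF (0.70).

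SOFT had 77 basal cells and 82 fibroblasts, under the 100 set for a ratio. The relative tag rule, which divides each tag by its own background, is looser and raised SOFT to 422 basal cells and 172 fibroblasts. Many of these were not called SOFT by the tag calls used elsewhere, and their part in the ratios was not tested. Under this rule 8 genes were at least 1.5-fold lower in STIFF in basal cells (3.11% of all measured genes) and 8 in fibroblasts (3.78%). In basal cells Adm was 9.90 CPM in STIFF and 47.3 in SOFT, 4.78 times as high [3.76 to 6.10], P4ha2 19.1 and 72.4, 3.80 times, and Ero1l 62.7 and 222, 3.54 times. Ankrd37 (22.8 and 20.5 CPM) and P4ha1 (104 and 110.4 CPM) were level there. In fibroblasts Pgf was 23.6 and 82.9 CPM, 3.51 times as high in SOFT [2.88 to 4.31], and the genes that did not reach the size were Bnip3 at 1.44 times and P4ha1 at 1.48 times. By the tag calls used elsewhere, macrophage markers summed to 388 CPM in STIFF and 1694 in SOFT fibroblasts, and their part was not tested.

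In macrophages the genes went both ways. Of 9 genes measured there, Adm (13.4 CPM in STIFF and 4.61 in SOFT, ratio 2.90 [1.78 to 4.90]) and Ankrd37 (55.1 and 31.9, ratio 1.73) were higher in STIFF, and Ero1l (76.4 and 149, 1.96 times as high in SOFT) and Egln3 (34.8 and 67.3, 1.94 times) were lower. The background was wide, since 22.2% of all measured genes were past the size in either direction and their median log2 ratio was 0.20. Divided by that median, the same 4 genes passed and Ndrg1 was lower as well (log2 ratio −0.76). Luminal markers summed to 5767 CPM in STIFF and 1736 in SOFT macrophages, and their part in these ratios was not tested.

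MATR and SOFT shared 1 channel. Over all cells 1 of the 10 genes passed 1.5-fold, Ankrd37 at 1.54 times as high in MATR [1.44 to 1.65], beside 5.8% of all measured genes past it in either direction. Egln3 (1.35), Bnip3 (1.32) and Adm (1.28) were somewhat higher in MATR and Ero1l was 1.31 times as high in SOFT. In HR-positive cells Ankrd37 at 1.88 and Egln3 at 1.59 were past the size in MATR (1.88% of all measured genes), and neither was under the margin tag rule. By that rule and by the relative rule, Ero1l (log2 ratio −0.71 in both) and Pgf (−1.11 and −1.21) were lower in MATR. Without cluster 5, Ankrd37, Egln3, Adm and Bnip3 were higher in MATR. The median log2 ratio was then 0.51 over 9 genes measured, in place of 0.03 over 10. In HR-negative cells P4ha2, 1.84 times as high in SOFT, and Ero1l, 1.76 times, were lower in MATR (2.53%), and neither was past it with finer clusters. In macrophages Adm at 3.60 [2.11 to 6.31], Pgf at 2.07 and Ankrd37 at 1.74 were higher in MATR (11.4%), where the luminal markers summed to 3546 CPM against 1736 in SOFT. With the highest doublet scores left out, Ankrd37 was higher and Ero1l and Vegfa lower in MATR (log2 ratios 0.83, −0.68 and −0.70), of 8 genes measured.

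Basal cells and fibroblasts of SOFT were again compared under the relative tag rule, with the same limit. In basal cells 4 of 10 genes were at least 1.5-fold lower in MATR, beside 2.76% of all measured genes: P4ha2 (36.1 CPM in MATR and 72.4 in SOFT), Adm (24.6 and 47.3), Pgf (76.7 and 124) and Ero1l (143 and 222). In fibroblasts 5 of 10 were, beside 5.32%: Pgf, 4.49 times as high in SOFT [3.16 to 6.58], Ero1l at 1.73 times, Vegfa at 1.71, Ndrg1 at 1.56 and P4ha2 at 1.52. The median log2 ratio was −0.39 in basal cells and −0.57 in fibroblasts. By the tag calls used elsewhere, macrophage markers summed to 188 CPM in MATR and 1694 in SOFT fibroblasts, and their part was not tested.

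Between COL1 and MATR, across channels, P4ha1 alone passed 1.5-fold over all cells, at 1.63 times as high in COL1 [1.55 to 1.70]. Of all measured genes, 7.38% were past it in either direction. The median log2 ratio of the 10 genes was 0.15 beside 0.03 for all measured genes. The count was 2 under the relative tag rule and 3 with the highest doublet scores left out. Fibroblasts were 10.5% of COL1 and 4.501% of MATR cells, and within fibroblasts P4ha1 was 1.28 times as high in COL1. With classes weighted equally 0 genes passed in this comparison over all cells, and 0 in that of MATR with SOFT. In basal cells Adm alone passed, at 2.95 [2.27 to 3.86], beside 4.06% of all measured genes higher in COL1. With the highest doublet scores left out 5 passed, Vegfa, Ankrd37, Pgf and P4ha2 beside Adm, with log2 ratios of 0.59 to 2.49. In fibroblasts Pgf at 3.48 [2.39 to 5.195], Ankrd37 at 1.74, Ero1l and Vegfa at 1.55 each and Bnip3 at 1.54 were higher in COL1, beside 4.3%. Ero1l and Bnip3 were under the size by the margin tag rule (log2 ratios 0.39 and 0.58), and 7 genes passed by the relative rule.

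HR-negative cells went the other way, with Egln3 1.64, Ndrg1 1.57 and Bnip3 1.56 times as high in MATR, beside 2.74% of all measured genes lower in COL1. None of those 3 passed the size under either other tag rule, where P4ha2 did instead (log2 ratio −0.63 by the relative and −0.59 by the margin rule), and no gene passed with finer clusters. In macrophages Egln3 at 1.82, Vegfa at 1.78 and Pgf at 1.59 were higher in COL1, beside 6.13%, and none of these was past the size under the margin tag rule.

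Whether the genes were high in the same cells was described within HR-positive cells, after thinning each cell to 3000 UMIs so that depth was equal and leaving out 12 shallower cells of COL1, 11 of STIFF, 17 of MATR and 5 of SOFT. At least 1 Ndrg1 UMI was seen in 39.2% of COL1, 20.1% of STIFF, 41.1% of MATR and 42.4% of SOFT cells, and in 63.2%, 47.0%, 68.9% and 70.2% before thinning. Macrophages had the lowest shares, 14.3% to 26.0% after thinning. No class known to lack Ndrg1 was at hand to give the share that free RNA produces, and luminal markers were counted in macrophages too, so a UMI is not read as expression by that cell. STIFF again stood apart as the low matrix, while the other 3 had overlapping intervals.

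Cells with an Ndrg1 UMI had more Ero1l in every matrix: 833 CPM against 141 in COL1, 329 against 145 in STIFF, 510 against 196 in MATR and 847 against 185 in SOFT. Those ratios were 5.93 [4.89 to 7.24], 2.27 [1.91 to 2.69], 2.60 [2.30 to 2.93] and 4.58 [4.04 to 5.2005]. Ero1l thus ranged from 141 to 196 CPM between matrices in the cells without Ndrg1 and from 329 to 847 in those with it. Adm was 2.95, 2.58, 3.96 and 4.03 times as high in cells with Ndrg1, and Bnip3 1.85, 1.56, 1.58 and 2.08 times.

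Counts were made over the other genes with at least 50 thinned UMIs, 7 to 8 of 9. Of these, 7 of 7 were at least 1.5-fold higher in cells with Ndrg1 in COL1, 3 of 7 in STIFF, 6 of 8 in MATR and 7 of 7 in SOFT. The same share of all measured genes was 6.08%, 4.79%, 4.11% and 5.78%. The median log2 ratios of these genes were 1.47, 0.57, 1.17 and 1.39. Under the relative rule the STIFF count was 7 of 8, with a median log2 ratio of 0.73. The thinning was random and drawn anew for each count, so tag rule and draw cannot be told apart here. By the tag calls used elsewhere, Vegfa (1.45), P4ha1 (1.49), P4ha2 (1.41) and Ankrd37 (1.41) were just under the size in STIFF. Cluster 5 entered this contrast, since 71.8% to 79.0% of its cells carried a thinned Ndrg1 UMI. Within cluster 2, where 19.4% to 29.7% did, the counts were 3 of 5 in COL1, 6 of 7 in STIFF, 4 of 7 in MATR and 3 of 5 in SOFT, beside 5.55%, 4.34%, 4.05% and 4.45% of all measured genes.

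**Figure D4:**
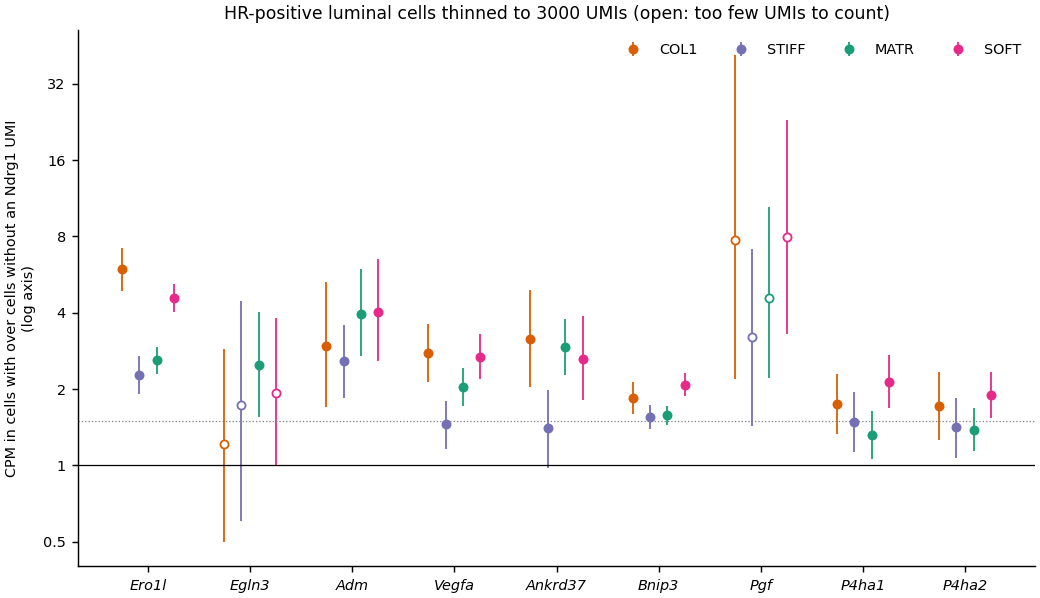
Ratio of the CPM of 9 genes in HR-positive cells with at least 1 thinned Ndrg1 UMI over that in cells with none (log axis), by matrix, with exact 95% counting intervals. Open points had too few UMIs to be counted, and Ero1l is highest in COL1 at 5.93 and lowest in STIFF at 2.27.

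The wider hypoxia programme was read from gene lists chosen by function. In COL1 against STIFF over all cells, 7 of 29 other hypoxia-induced genes were at least 1.5-fold higher in COL1 and 0 lower (median log2 0.22), beside 2.65% and 1.14% of all measured genes. Lox, the collagen cross-linking oxidase, was among the highest at 2.28, and the lowest were Zfp395 at 0.811 and Selenbp1 at 0.699. Of 18 glycolysis and glucose uptake genes, 0 passed in either direction (median 0.01), from Pfkfb3 at 1.28 and Slc2a1 at 1.18 to Gapdh and Hk1, each near 0.89. Of 17 genes of the unfolded protein and integrated stress response 0 passed (median 0.01), from Ddit3 at 1.27 and Dnajb9 at 1.23 to Sdf2l1 at 0.841 and Creld2 at 0.812. Of 7 genes for HIF and its oxygen sensors 0 passed (median −0.03), from Vhl at 1.13 and Egln1 at 1.06 to Hif1an at 0.972 and Hif1a at 0.832. Of 4 measured receptor genes 1 passed, Nrp2, a co-receptor of VEGF family ligands, at 1.75, with Nrp1 at 1.25, Ramp1 at 1.13 and Flt1 at 0.858.

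Over all cells Hif1a, the HIF alpha subunit, was at 153 CPM in COL1 and 184 in STIFF, 109 in MATR and 129 in SOFT. Its RNA was thus highest in STIFF. As background, HIF alpha is controlled mainly as a protein, which was not measured. Of 14 measured genes for collagen hydroxylation and its substrates, 6 were at least 1.5-fold higher in COL1 over all cells, beside 2.65% of all measured genes. The 14 ranged from Plod2 at 1.88 and Col3a1 at 1.77 down to P4hb at 1.19 and Plod3 at 1.18. Within fibroblasts 1 of 15 passed, Plod2 at 1.87, beside 4.75% of all measured genes. Apln, the vessel-acting peptide apelin, was the 1 of 5 other vessel ligands to pass, at 3.07 [2.54 to 3.73], followed by Angptl4 at 1.18, with Vegfb at 1.16 and Edn1 at 0.824 the lowest. Of 2 measured relatives of Ndrg1, Ndrg2 passed at 1.59 and Ndrg3 was at 1.25. Of 11 partners of Bnip3 in mitophagy and apoptosis 0 passed, from Gabarapl1 at 1.22 and Map1lc3a at 1.09 to Bcl2 at 0.959 and Becn1 at 0.927.

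The lists were also read within classes. In basal cells Car9, a carbonic anhydrase, was 2.62 times as high in COL1 [2.18 to 3.16] and Slc2a1 1.59 times, and 7 of 29 other hypoxia-induced genes were higher and 1, Stc2, lower, beside 3.88% and 5.74% of all measured genes. In fibroblasts 10 of 28 were higher and 0 lower, beside 4.75% and 8.5%, with Hmox1 at 2.75, and the glucose transporters Slc2a3 at 2.94 and Slc2a1 at 1.96 were among 3 of 19 glycolysis genes past the size. In HR-negative cells 8 of 24 other hypoxia-induced genes were lower in STIFF than in SOFT and 1 higher (median −0.44), beside 3.19% and 4.04%, with Hmox1 3.11 and Plod2 2.99 times as high in SOFT. There 3 of 17 glycolysis genes were lower as well (median −0.35), including Pfkfb3 and Pgk1. Under the relative tag rule the counts of lower genes were 6 of 24 and 3 of 17. The lists were not counted with finer clusters. Over all cells, STIFF against SOFT had 3 of 29 other hypoxia-induced genes lower, among them Hmox1 (2.54 times as high in SOFT) and Car9 (1.72 times), beside 2.32% of all measured genes, and 0 of 18 glycolysis genes past the size.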

How the data were processed

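Per the labels' protocols, cells of 2 cultures at a time carried hashtag antibodies and shared 1 channel; the chip and library kits named there differ in chemistry version. The deposited files hold raw UMI counts per gene and barcode. Their headers name Cell Ranger 5.0.0, and the submitters' processing notes add Seurat 4.2.0 and mm10. Both deposits of a pool held the same gene counts, so each pool was read once.

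The cell filter asked for 1000 UMIs, 500 genes and no more than 15% mitochondrial UMIs. Hashtags were called with HTODemux (Seurat 5.3.0, R 4.3.3, positive quantile 0.99), and barcodes with both tags (305 and 277) or none (5249 and 3394) were left out. Alternatives were the relative tag rule, the margin rule (a lead of 1 in centred log-ratio) and leaving out the 336 and 282 singlets of highest doublet score. The relative rule divided each tag by its background, the median in cells called for the other tag. A tag was then called if at or above its background and at least 2 times the other. Both tags 4 times over background counted as a doublet. More cells were called than by HTODemux: 1770 COL1, 5299 STIFF, 2946 MATR and 4124 SOFT. Singlets were clustered with scanpy 1.11.5 in Python 3.11.15, on 2000 variable genes less the genes described here and their lists, 30 principal components, 15 neighbours and Leiden resolution 0.5. A cluster could be named where at least 3 markers of a list had 20 CPM and 2-fold over the median of the other clusters. The passing list with the highest mean log2 ratio gave the name. No name was given where another passing list reached 0.5 of that mean, fibroblast with pericyte excepted. Both unnamed clusters were of this kind. A shallow cluster also needed a marker of the list among its leading genes. A level needed 50 cells and a ratio 100.

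Counts summed per matrix and class were divided by their total. Levels have exact Poisson and ratios exact conditional binomial 95% intervals, and a count of 0 was set to 3. The ratio procedure was tested on simulated counts. These were drawn with counting error only, so the spread between cells or cultures was not part of that test. The genes, lists and alternatives were chosen with earlier results of these data known. All 10 genes are named, as are the 2 highest and 2 lowest ratios of each list in COL1 over STIFF over all cells and the 5 genes most alike in pattern to Ndrg1, Ero1l, Adm, Vegfa and Bnip3. Receptor and Hif1a levels and the list genes given in other comparisons were picked after their values were seen. One gene that the rule on lists would name is not reported here.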

Additional observations from a re-analysis of the deposited data

Results flagged for a closer look

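In 4 cases a gene was past 1.5-fold in opposite directions in 2 classes of the same comparison. The difference between the classes was not tested, since each matrix is 1 culture, and all 4 cases are comparisons between channels. In STIFF over SOFT, Adm had a log2 ratio of 1.53 in macrophages and -1.19 in HR-negative cells, and Ankrd37 had 0.79 and -0.85. In HR-negative cells both changed sign with finer clusters, to 0.072 and 0.13. In COL1 over MATR, Egln3 had a log2 ratio of 0.86 in macrophages and -0.71 in HR-negative cells, and Bnip3 had 0.63 in fibroblasts and -0.64 in HR-negative cells. All of these 4 values kept their sign but were under 1.5-fold with the margin tag rule (0.57, -0.46, 0.58 and -0.28). The luminal markers in macrophages summed to 5767 CPM in STIFF and 1736 in SOFT, and to 2927 in COL1 and 3546 in MATR.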

How the results depend on the processing

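Within classes, 59 ratios of the 10 genes were past 1.5-fold, and over 412 alternative values of them 371 kept the direction and the size, 38 kept the direction below the size and 3 changed direction. All 59 kept both with at least 2000 UMIs per barcode and with ratios divided by the median ratio of all measured genes. Under the relative tag rule 51 of 59 did and under the margin rule 44, with the highest doublet scores left out 49 of 50, at Leiden resolution 0.3 56 of 59 and at 1.0, where fewer could be computed, 35 of 45. The 3 that turned are Adm (log2 ratio 0.072), Ankrd37 (0.13) and P4ha1 (0.10) in HR-negative cells, STIFF over SOFT, at resolution 1.

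The median log2 ratio over all cells for COL1 over STIFF moved from 0.60 to 0.70 under the relative rule, 0.69 without unnamed clusters and 0.80 with CPM averaged over classes, and its count from 5 to 3 under the margin rule. For STIFF over SOFT the median moved from -0.29 to -0.42 (relative), -0.40 (margin) and -0.51 (class average), and the count from 2 to 4 under the relative rule, without unnamed clusters and with the class average. For MATR over SOFT the median moved from -0.01 to -0.15 under both tag rules and -0.16 with the class average, where the count moved from 1 to 0. For COL1 over MATR it moved from 0.15 to 0.24 (relative) and 0.29 (class average), and the count from 1 to 2 (relative), 3 (doublet scores) and 0 (class average). In HR-positive cells without cluster 5, COL1 over STIFF moved from 4 genes higher and 0 lower to 1 and 1, and COL1 over MATR from 0 and 0 to 1 and 0. STIFF over SOFT moved from 0 and 3 of 10 genes measured to 2 and 1 of 8, with a median of -0.26 over the 10 and 0.50 over the 8. MATR over SOFT moved from 2 and 0 of 10 to 4 and 0 of 9. In HR-negative cells the count in COL1 over STIFF moved from 1 to 2 at resolution 0.3, and that in STIFF over SOFT from 8 to 5 under each other tag rule and 3 at resolution 1. The causes were not tested.

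Leaving out clusters 5 and 7, and counting genes under each alternative, were chosen after seeing the data. No paired analysis was possible because each matrix is 1 culture and no condition has a replicate. Nothing here measures the spread between cultures, and levels under about 10 CPM in the smaller classes rest on few UMIs.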
